A study of Mus musculus with 18 samples.

Results

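The genes described here encode 10 inflammatory cytokines and mediators: Tnf, Il1a, Il1b, Il6, Osm, Lif, Nos2, Ptgs2, Acod1 and Nfkbiz. They were picked by symbol, and the rule that picks them uses no measured value, although it was set with earlier results of these data known. All 10 were among the 21015 genes of the deposited count table, and all 10 were among the 16125 genes that passed the filter on low counts and were tested. RNA came from tumours of MC38-OVA, a mouse colon carcinoma line that carries the model antigen ovalbumin, implanted into mice. The age entry is 10 weeks for all groups, injections were daily and intraperitoneal, and tumours were taken at day 7 after treatment. The 6 groups of 3 libraries are WT-Clonidine, WT-Guanabenz and WT-Control, from wild-type hosts given clonidine, guanabenz or PBS, and KO-Clonidine, KO-Guanabenz and KO-Control, from ADRA2A-/- hosts given the same agents. The knockout is that of the host, and the same implanted line is named for all groups. Clonidine and guanabenz are agonists of alpha2-adrenergic receptors, and Adra2a encodes such a receptor. The labels give no doses, no sex and no statement of which library came from which animal, and the treatment entry of both control groups reads untreated where the protocol names PBS. The 3 libraries titled KO-Guanabenz carry the same entry, untreated, so wherever they appear below their treatment rests on the title alone.

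These genes belong to the early arm of inflammation. Macrophages, neutrophils, fibroblasts and tumour cells that sense microbial or damage signals activate the transcription factor NF-kB, which induces TNF and the IL-1 cytokines, and these in turn induce IL-6, LIF, the prostaglandin-forming enzyme COX-2 and further chemokines in neighbouring cells. The messages are short-lived and normally scarce, so their level in a tissue follows the current state of its cells closely. In tumours they are known for recruiting myeloid cells and for shaping, in either direction, the immune response to the tumour.

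The promoters of the members are shown first because the transcription factors of this response bind short motifs in them. RefSeq start sites on GRCm38.p6 gave windows of 300 bases (250 before and 50 after the start) for 7 of the 10 genes, all but Nos2, Osm and Nfkbiz. Printed below, 5′ to 3′ on the strand of the gene, are 4 of them: Il6 and Il1a, whose levels spread most in these tumours through a single library, and Ptgs2 and Acod1, whose highest libraries were other ones. The Il6 window lies at chr5:30012864-30013163 on the plus strand, the Il1a window at chr2:129309923-129310222 on the minus strand, the Ptgs2 window at chr1:150099781-150100080 on the plus strand and the Acod1 window at chr14:103046762-103047061 on the plus strand. Capitals mark matches on either strand to any of 5 motifs.
Il6: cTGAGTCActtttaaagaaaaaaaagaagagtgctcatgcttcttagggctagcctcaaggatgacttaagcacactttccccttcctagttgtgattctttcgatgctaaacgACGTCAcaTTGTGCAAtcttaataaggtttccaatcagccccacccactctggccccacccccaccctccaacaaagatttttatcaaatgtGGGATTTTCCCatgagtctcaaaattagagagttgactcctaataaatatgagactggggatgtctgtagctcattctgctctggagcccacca
Il1a: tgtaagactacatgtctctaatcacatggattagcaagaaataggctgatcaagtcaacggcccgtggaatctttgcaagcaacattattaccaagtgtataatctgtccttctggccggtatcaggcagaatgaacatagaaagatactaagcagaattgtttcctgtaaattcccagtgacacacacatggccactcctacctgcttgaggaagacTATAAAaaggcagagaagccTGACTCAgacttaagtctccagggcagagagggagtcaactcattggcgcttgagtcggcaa
Ptgs2: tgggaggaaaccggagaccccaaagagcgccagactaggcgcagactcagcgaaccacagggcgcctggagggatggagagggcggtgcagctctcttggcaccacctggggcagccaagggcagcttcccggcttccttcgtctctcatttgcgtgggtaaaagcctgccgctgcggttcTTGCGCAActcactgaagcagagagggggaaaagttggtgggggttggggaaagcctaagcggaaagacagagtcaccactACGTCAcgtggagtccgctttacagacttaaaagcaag
Acod1: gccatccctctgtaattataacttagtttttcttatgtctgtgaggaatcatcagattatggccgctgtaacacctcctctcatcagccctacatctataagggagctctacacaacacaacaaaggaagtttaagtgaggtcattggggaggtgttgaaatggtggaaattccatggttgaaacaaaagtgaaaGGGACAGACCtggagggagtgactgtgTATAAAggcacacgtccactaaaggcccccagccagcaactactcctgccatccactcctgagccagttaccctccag
The motifs searched were the NF-kB motif, written as GGGA followed by any 4 bases and CC, the C/EBP motif TTGNGCAA, the cyclic AMP response core TGACGT, the AP-1 motif TGANTCA and the TATA box TATAAA. The Il6 window held matches to the first 4 of these and no TATAAA, and 2 of its NF-kB matches, 1 on each strand, overlap. The Ptgs2 window held a C/EBP match that reads the same on both strands and a cyclic AMP response core. The Il1a window held AP-1 and TATAAA, and the Acod1 window held NF-kB and TATAAA. Among the 7 windows, NF-kB was matched in 4, AP-1 in 3, C/EBP in 2, the cyclic AMP response core in 2 and TATAAA in 4. Over all 32851 mouse promoter windows of the table the shares were 20.7% for NF-kB, 7.81% for AP-1, 2.94% for C/EBP, 7.51% for the cyclic AMP response core and 13.6% for TATAAA. A match describes letters only and says nothing of binding in these tumours.

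The libraries held between 54.68 and 491.1 times 1e6 counts (median 92.4), so the scarcest member value still rested on 19 reads (Il6) and the spread between libraries set the precision. Adra2a, the disrupted gene, lay between 0.0917 and 0.293 CPM (counts per 1e6 counts) in the 9 KO libraries and between 0.286 and 0.589 CPM in the 9 WT libraries, so the ranges overlapped. Macrophage and monocyte markers were abundant in every library, with Csf1r between 476 and 629 CPM. Markers of colon epithelium were low, with Cdx2 at 0 in 17 of 18 libraries and Krt8, Krt18 and Krt19 no higher than 0.534 CPM, while Epcam reached 2.75, Cdh17 1.85 and Lgals4 1.495 CPM and all 3 were detected in every library. Transcripts of Y-linked genes were present in 2 WT-Clonidine, 2 WT-Guanabenz, 3 WT-Control, 0 KO-Clonidine, 2 KO-Guanabenz and 2 KO-Control libraries. In bulk tumour RNA, fewer cells of a type and less RNA per cell cannot be told apart.

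On a scale that corrects for transcript length, Ptgs2 had the highest level of the 10 genes, at a mean of 16.1 CPM per kilobase over the 18 libraries. Ptgs2 encodes cyclooxygenase 2, the inducible enzyme that starts prostaglandin synthesis. Il1b followed at 12.6 CPM per kilobase and Nfkbiz at 7.66 CPM per kilobase. The middle of the order was held by Acod1 at 5.25, Tnf at 4.14, Lif at 1.57, Osm at 1.49 and Nos2 at 1.13 CPM per kilobase. The lowest were Il1a at 0.768 and Il6 at 0.639 CPM per kilobase. Neighbours in this order such as Lif and Osm, or Il1a and Il6, lie closer together than the spread of either gene over the libraries. Il1a and Il1b lie beside each other on chromosome 2 (129299609 to 129310186 and 129364569 to 129371164, GRCm38), and Osm and Lif on chromosome 11 (4236785 to 4241026 and 4257568 to 4272514). Il1a overlaps the gene Gm14023 and Il1b the gene Il1bos on the opposite strand in GENCODE, and since no source used here states strandedness, reads of these pairs cannot be told apart.

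The feature that stood out was a single library. The library WT-Guanabenz 3 was the highest of the 18 for 7 of the 10 members, Tnf, Il1a, Il1b, Il6, Osm, Lif and Nfkbiz, while over all genes tested this library was the highest for 8.66%. It exceeded the next library by more than 2 times for 4 members, Tnf, Il1a, Il6 and Osm, against 0.515% of all genes. It was not high for every member, since it had rank 2 for Acod1, rank 3 for Ptgs2 and rank 9 for Nos2.

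**Figure D1:**
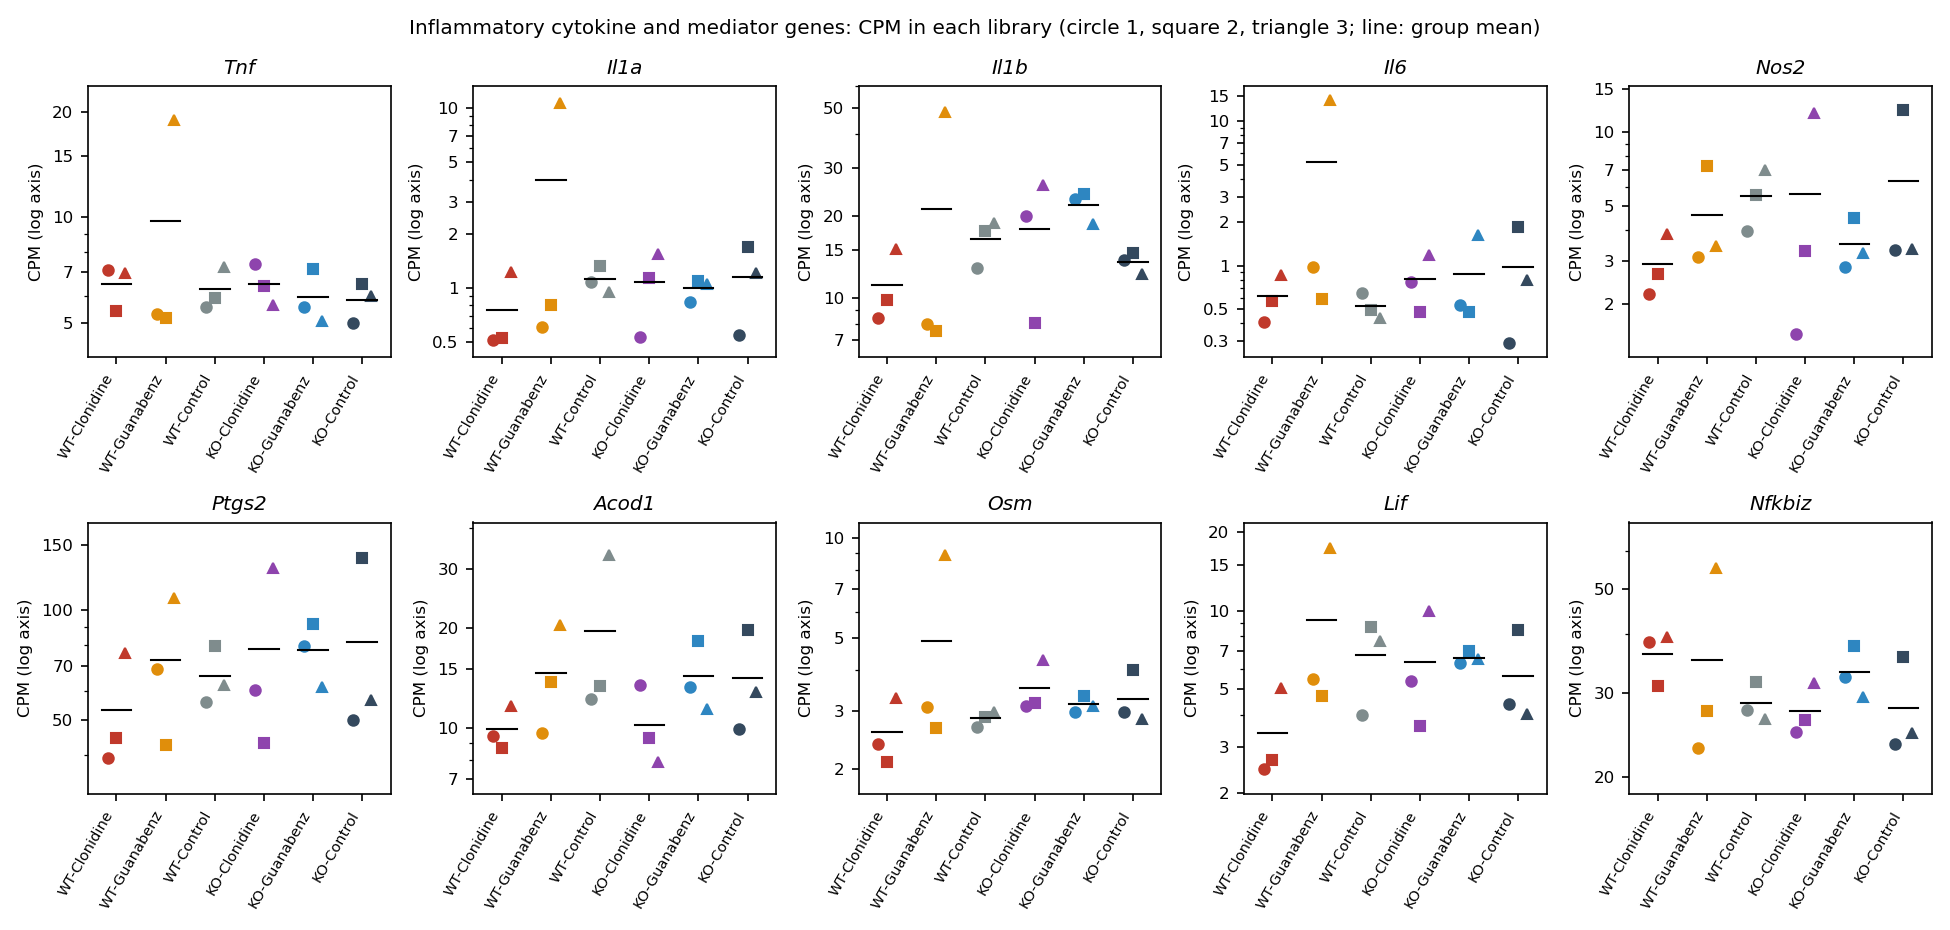
CPM (log axis) of each of the 10 genes in each library, by group, with the group mean as a line. The triangle of WT-Guanabenz 3 stands above all other points for Tnf, Il1a, Il1b, Il6, Osm, Lif and Nfkbiz, at 14.0 CPM against at most 1.86 CPM elsewhere for Il6.

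Tnf and the IL-1 genes encode the cytokines at the top of the response. Tnf, the gene of tumour necrosis factor, had 5.31, 5.17 and 18.9 CPM in WT-Guanabenz, against 5.57, 5.92 and 7.25 CPM in WT-Control. Outside WT-Guanabenz 3 it was among the steadiest members, with all 17 other libraries between 5.00 and 7.37 CPM. Il1a encodes IL-1 alpha, an alarmin held in cells and released on damage. It had 0.607, 0.807 and 10.6 CPM in WT-Guanabenz, against 1.09, 1.33 and 0.952 CPM in WT-Control, and WT-Guanabenz 3 was 6.25 times the next library and 9.99 times the median of the other 17. The first and second WT-Guanabenz libraries lay below all 3 WT-Control libraries, so the group straddles its control. Il1b encodes IL-1 beta, which needs cleavage, chiefly by caspase 1, before release. It had 8.05, 7.56 and 48.0 CPM in WT-Guanabenz, against 12.9, 17.6 and 18.8 CPM in WT-Control, the same arrangement with the gap on both sides.

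Il6, Osm and Lif encode cytokines of the IL-6 family, which share the receptor subunit gp130 (Il6st) and signal through STAT3. Il6 had 0.974, 0.587 and 14.0 CPM in WT-Guanabenz, against 0.649, 0.493 and 0.433 CPM in WT-Control. The value in WT-Guanabenz 3 was 7.52 times that of the next library, KO-Control 2, and 23.8 times the median of the other 17 libraries, the widest such gap of the 10 genes. Osm, the gene of oncostatin M, a product of activated myeloid and T cells, had 3.09, 2.67 and 8.92 CPM in WT-Guanabenz, against 2.69, 2.89 and 2.99 CPM in WT-Control. Lif, the gene of leukaemia inhibitory factor, had 5.50, 4.73 and 17.5 CPM in WT-Guanabenz, against 4.00, 8.65 and 7.63 CPM in WT-Control. For Osm and Lif the first and second libraries of WT-Guanabenz lay close to or inside the control range.

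The enzyme genes were arranged differently. Nos2, the inducible nitric oxide synthase, had its highest values in KO-Control 2 with 12.4 CPM and KO-Clonidine 3 with 12.0 CPM, and WT-Guanabenz 3 was inside the range of its own group at 3.45 CPM. Ptgs2 was also highest in KO-Control 2, with 138.5 CPM, and in KO-Clonidine 3, with 130.4 CPM, followed by WT-Guanabenz 3 with 107.4 CPM. Acod1, whose enzyme makes the antimicrobial metabolite itaconate in activated macrophages, was highest in WT-Control 3, with 33.2 CPM, and WT-Guanabenz 3 followed with 20.4 CPM. Each of these 3 enzyme genes thus had its maximum in another library than the cytokines. Nfkbiz encodes IkB-zeta, a nuclear cofactor of NF-kB that is needed for induction of Il6 in mouse macrophages. Like the cytokines it was highest in WT-Guanabenz 3, with 23.0, 27.6 and 55.2 CPM in WT-Guanabenz, against 27.7, 31.8 and 26.4 CPM in WT-Control, and its gap to the next library was the narrowest among the 7 genes with their maximum in WT-Guanabenz 3, at 1.40 times.

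**Figure D2:**
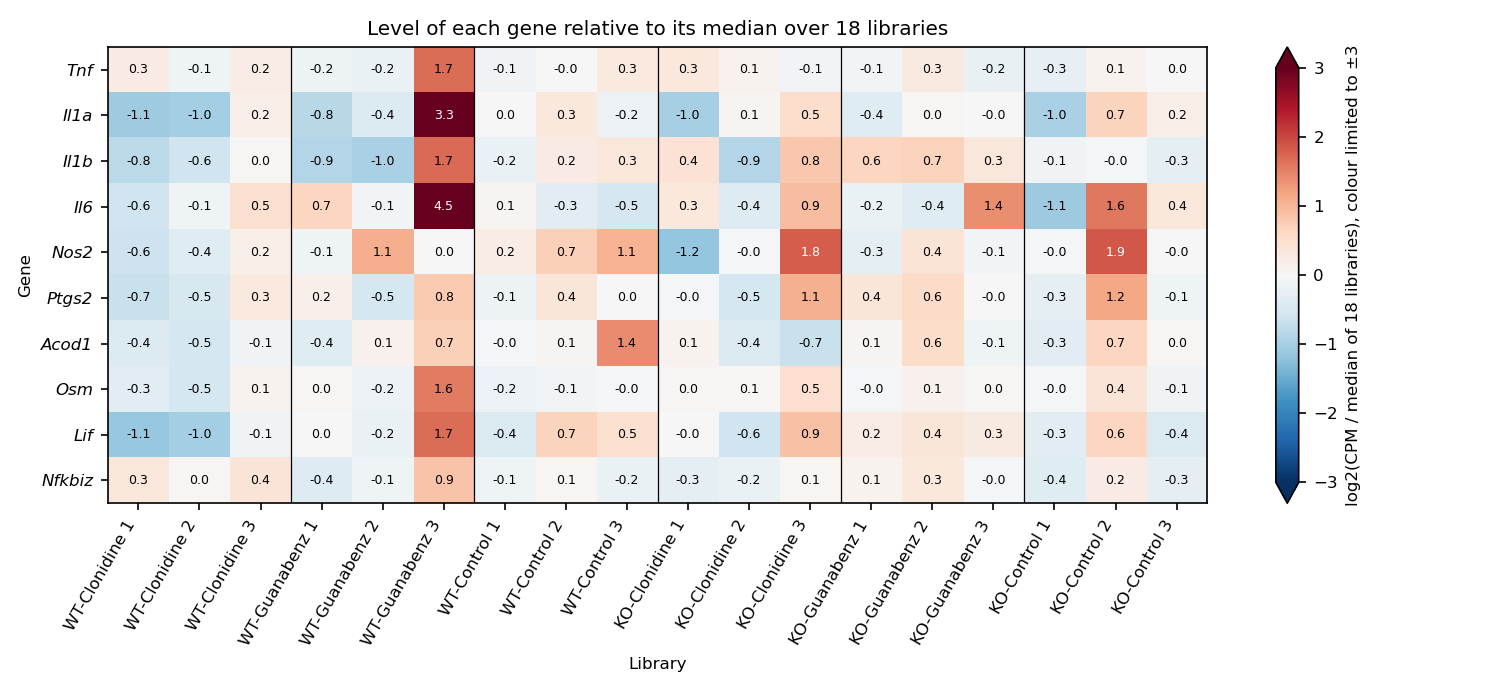
Each gene's CPM in each library relative to its median over the 18 libraries, as log2, with groups parted by lines. Colour is limited to 3 on either side of 0. The column of WT-Guanabenz 3 is darkest for Il6 and Il1a, which lie 23.8 and 9.99 times above the median of the other 17 libraries on a linear scale, and KO-Control 2 and KO-Clonidine 3 stand out for Nos2, with 12.4 and 12.0 CPM.

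In each of 3 further groups 1 library was above both others for most members. KO-Control 2 was above both other KO-Control libraries for 10 of 10 members, where 35.9% of all genes tested had that order. The ratio of KO-Control 2 to the mean of the other 2 libraries was largest for Nos2 at 3.69, Il6 at 3.45 and Ptgs2 at 2.60, and smallest for Il1b at 1.12. KO-Clonidine 3 was above both others of its group for 8 members, against 30% of all genes, with ratios of 5.01 for Nos2 and 2.52 for Ptgs2. Tnf and Acod1 were the exceptions there, since KO-Clonidine 3 had the lowest value of its group for both, at 5.63 and 7.88 CPM. In WT-Clonidine, library 3 was above both others for 9 members, all but Tnf, against 39.9% of all genes. Its ratio to the mean of the other 2 libraries was 2.35 for Il1a, 1.97 for Lif and 1.82 for Ptgs2. The summed CPM of 11 neutrophil markers was 36.8 in WT-Clonidine 3, against 33.6 and 29.5 in the other WT-Clonidine libraries. It was 43.1 in KO-Control 2, against 25.7 and 34.4 in the other KO-Control libraries. In KO-Clonidine 3 it was 37.5, against 28.7 and 35.6 in the other KO-Clonidine libraries. Summed epidermal markers were the lowest of the group in each of these libraries. They were at 105.4 CPM in WT-Clonidine 3 (153.4 and 194 in the others), 68.8 in KO-Control 2 (164.5 and 192.9) and 37.2 in KO-Clonidine 3 (177.7 and 161). The part of neutrophils, skin or other cells in the member values was not tested.

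What else was high in WT-Guanabenz 3 was read from lists of related genes. Of 11 inflammatory chemokines and growth factors, 10 had their maximum over the 18 libraries in WT-Guanabenz 3, and the median ratio of that library to the median of the others was 3.42, against 0.999 over all genes. Cxcl2, a neutrophil attractant, was at 39.1 CPM there and at most 5.42 CPM elsewhere, and Cxcl1, of the same function, at 58.2 CPM against at most 27.3 CPM. Cxcl3 reached 4.95 CPM against at most 1.18 CPM, and Csf3, the gene of the granulocyte growth factor G-CSF, 4.795 CPM against at most 1.78 CPM. The exception was Csf1, the macrophage growth factor, which was at 381 CPM with other libraries up to 427 CPM. Among inhibitors and feedback genes some were at their maximum and others were not. At it were Il1rn, the IL-1 receptor antagonist, at 42.1 CPM against at most 28.6 CPM, Socs3, the STAT3 feedback inhibitor, at 84.6 CPM against at most 59.4 CPM, and Nfkbia, the NF-kB inhibitor, at 119.6 CPM against at most 106.8 CPM. Not at it were the feedback inhibitors Nfkbib, Nfkbie and Socs1, and Il10, the gene of an anti-inflammatory cytokine, with 0.972 CPM there and up to 1.44 CPM elsewhere. The NF-kB subunits were not at it either: Nfkb1, Nfkb2, Rel, Rela and Relb were all below the highest of the other libraries, and the list of 16 NF-kB subunits and feedback inhibitors had a median ratio of 1.08, with 4 genes at their maximum. The other pathway lists had 5 of 11 STAT3 targets and acute phase genes at their maximum, 4 of 11 mRNA decay and signal brakes, 4 of 13 cytokine receptors and decoys, 2 of 14 prostaglandin genes, 1 of 10 arginine and nitric oxide genes and 1 of 9 inflammasome genes. Over all genes tested 8.66% had their maximum in WT-Guanabenz 3, a share not far from those of the prostaglandin, arginine and inflammasome lists.

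Cell type markers differed in WT-Guanabenz 3 as well. The 11 neutrophil markers in the table summed to 51.1 CPM there, against 26.8 and 30.8 CPM in the other WT-Guanabenz libraries and 34.5 to 36.2 CPM in WT-Control. Of the 51.1 CPM, 30.4 came from Csf3r alone, which reached 32.5 CPM elsewhere. Of the 8 neutrophil markers that were tested, 4 (S100a8, S100a9, Cxcr2 and Retnlg) had their maximum in WT-Guanabenz 3, while Ly6g, Camp and Ngp were at or near 0 in all libraries. Epidermal markers summed to 258.7 CPM in WT-Guanabenz 3, against 102.2 and 118.3 CPM in the other WT-Guanabenz libraries and 115.7 to 127.2 CPM in WT-Control, and 5 of 8 were at their maximum. The median ratio was 1.63 over 8 mast cell markers, with 2 at their maximum, and 0.997 over 12 macrophage and monocyte markers, with 1 at its maximum. Of 9 T cell markers 1 was at its maximum, and of the fibroblast and endothelial markers 0 were, where 8.66% of all genes were. Of 7 tested markers of colon epithelium and carcinoma 2 were, Epcam at 2.75 CPM against at most 1.81 and Lgals4 at 1.495 CPM against at most 1.26, and that list summed to 5.31 CPM in WT-Guanabenz 3, against 2.85 and 3.05 CPM in the other WT-Guanabenz libraries and 2.85 to 4.55 CPM in WT-Control. WT-Guanabenz 3 is also the library of its group without Y-linked transcripts, whereas all 3 WT-Control libraries have them. The part of neutrophils, skin or these other differences in the member values was not tested.

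**Figure D3:**
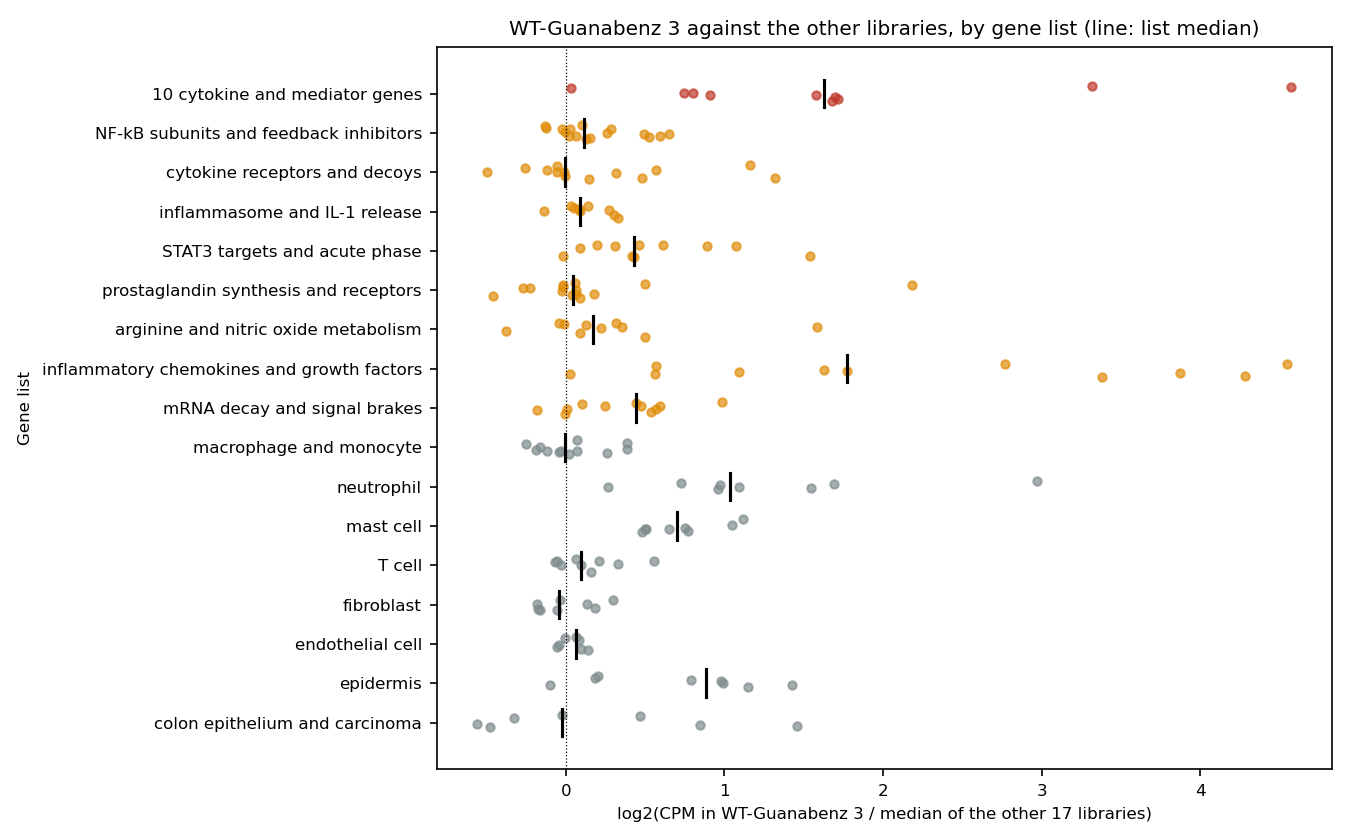
Each point is a gene, placed by log2 of its CPM in WT-Guanabenz 3 over its median in the other 17 libraries, by gene list, with the list median as a line. The list medians of the 10 cytokine and mediator genes and of the 11 inflammatory chemokines and growth factors lie furthest to the right, although Nos2 and Csf1 within them lie near 0, and the medians of macrophage, fibroblast and endothelial markers lie near 0.

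Guanabenz was compared with PBS in wild-type hosts in a single edgeR fit of all 18 libraries. None of the 10 members passed the quasi-likelihood test at an adjusted p of 0.05, and 0% of all genes did. DESeq2 called 0 members too, but gave no adjusted p for Il1a and Il6, so neither could be called there. In the comparisons below as well, a member without an adjusted p in DESeq2 counted as not passing. At an unadjusted p under 0.05 in edgeR stood 3 members, Il6, Il1a and Osm, where 11.4% of all genes tested lay, and the groups did not separate for any member in either direction, where 6.41% of all genes were higher and 8.19% lower without overlap. Il6 averaged 5.18 ± 7.62 CPM in WT-Guanabenz and 0.525 ± 0.112 CPM in WT-Control (SD, n = 3 each). It had the largest difference of the 10 genes, a log2 fold change of 3.34 (SE 0.94, 95% interval 1.35 to 5.33, edgeR adjusted p = 0.218). Il1a had a log2 fold change of 1.87 (SE 0.77, adjusted p = 0.377 in edgeR) and Osm one of 0.79 (SE 0.33, adjusted p = 0.386 in edgeR). Of the 10 members, 8 had positive values, with a median of 0.42 against 0.01 over all genes.

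Those differences rested on WT-Guanabenz 3. Without that library the log2 fold change against WT-Control was 0.58 for Il6, -0.65 for Il1a and 0.01 for Osm, and 2 of 10 members were positive, with a median of -0.25. Tnf stood at 0.66 with the library and at -0.26 without it, Lif at 0.46 and -0.41, Nfkbiz at 0.31 and -0.18, and Ptgs2 at 0.15 and -0.24. Il1b stood at 0.39 with the library (SE 0.53) and at -1.08 without it (SE 0.36, 95% interval -1.84 to -0.32, edgeR adjusted p = 0.165). WT-Guanabenz 3 stood out by the values of these same genes. Intervals without it, here and below, therefore cannot be read as ordinary 95% intervals. Acod1 was negative both ways, at -0.42 with the library and -0.75 without it, and Nos2 likewise at -0.27 and -0.09. With a term for Y-linked transcripts, fitted on all libraries, Il6 stood at 1.91, Il1a at 0.68 and Il1b at -0.17. The Acod1 value in turn depended on WT-Control 3, the library with 33.2 CPM, without which it was 0.20.

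**Figure D4:**
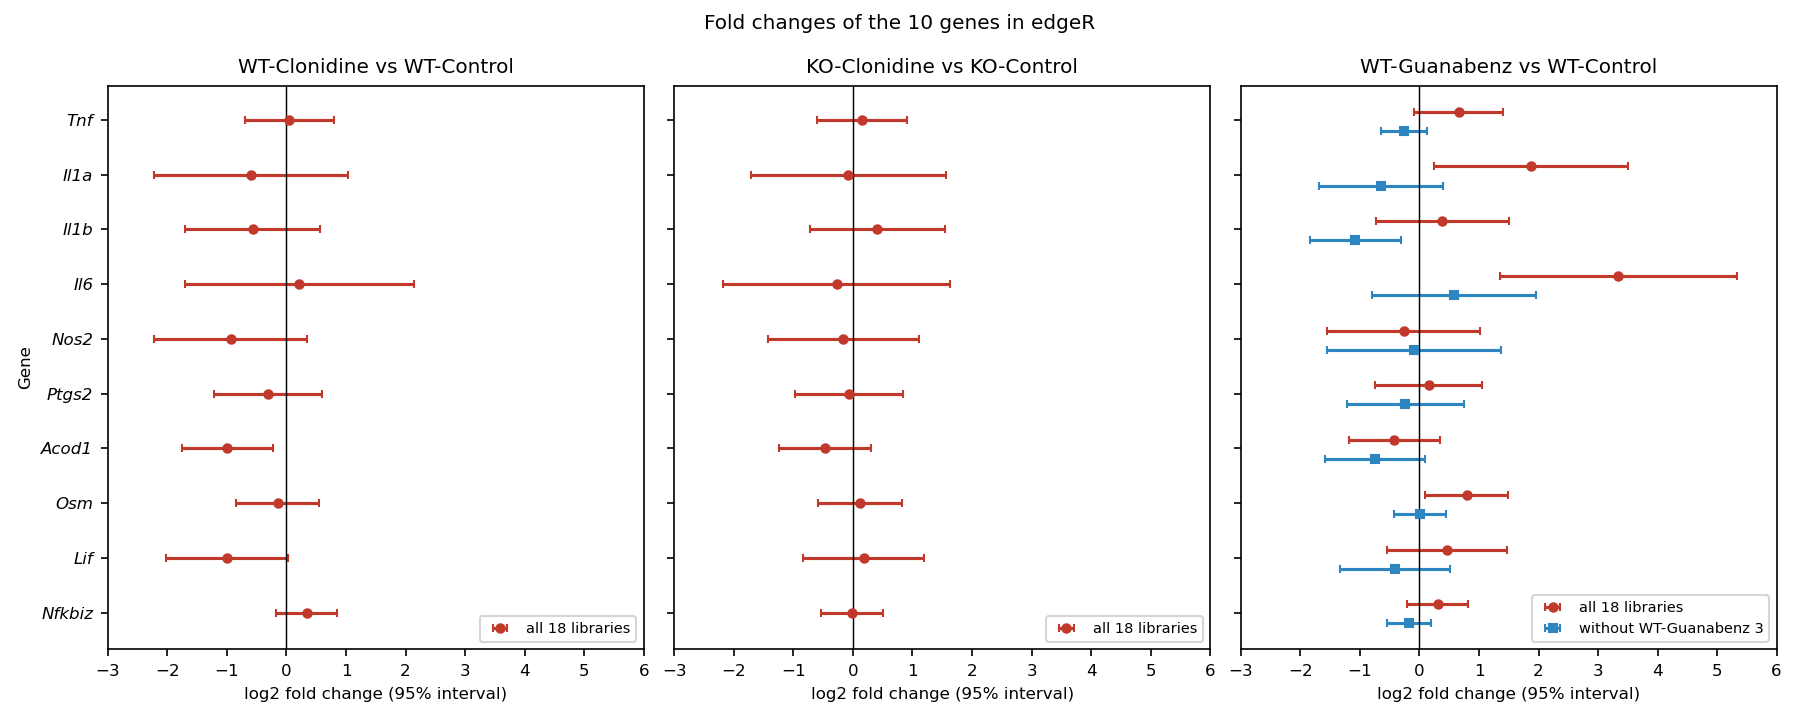
log2 fold change with its 95% interval for each of the 10 genes in 3 comparisons, from edgeR on all 18 libraries (red circles) and, for WT-Guanabenz against WT-Control, also without WT-Guanabenz 3 (blue squares). The squares lie left of the circles for every gene but Nos2, with Il6 at 0.58 against 3.34.

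In the KO hosts, which share no library with the comparison above, guanabenz was set against PBS on the strength of the titles. The single fit still shares the spread of each gene over all 18 libraries, WT-Guanabenz 3 among them. In edgeR 0 members passed, where 0.0124% of all genes did, and 0 members had an unadjusted p under 0.05, against 15.1% of all genes. DESeq2 called 0 members as well. Il1b had 23.1, 24.0 and 18.7 CPM in KO-Guanabenz, against 13.8, 14.6 and 12.2 CPM in KO-Control. All KO-Guanabenz libraries were above all KO-Control libraries for this gene, 1 of the 10 members, an order that 9.09% of all genes had. Lower without overlap were 0 members, against 10.5% of all genes. Il1b averaged 21.9 ± 2.84 CPM in KO-Guanabenz and 13.6 ± 1.20 CPM in KO-Control (SD, n = 3 each). The log2 fold change of Il1b was 0.69 (SE 0.54, 95% interval -0.44 to 1.83). Without WT-Guanabenz 3 it was again 0.69 (SE 0.30, 95% interval 0.05 to 1.34, edgeR adjusted p = 0.266). Nos2 had 2.83, 4.50 and 3.22 CPM in KO-Guanabenz, against 3.33, 12.4 and 3.37 CPM in KO-Control, and its log2 fold change of -0.85 was 0.07 without KO-Control 2. The median over the 10 members was -0.02, and all 8 fibroblast markers were positive beside them with a median of 0.46, whose part in the member values was not tested.

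The guanabenz effect was also compared between genotypes, as the difference of the log2 fold changes in WT and in KO hosts. No member passed in edgeR, where 0.0062% of all genes did, nor in DESeq2, where a member without an adjusted p counted as not passing. In edgeR 1 member, Il6, had an unadjusted p under 0.05, against 5.71% of all genes. For Il6 the difference was 3.49 (SE 1.28, adjusted p = 0.866 in edgeR) and 0.73 without WT-Guanabenz 3. For Il1a it was 2.08 (SE 1.09) and -0.44 without that library. For Il1b it was -0.31 (SE 0.75) with the library and -1.77 without it (SE 0.47, 95% interval -2.77 to -0.77, edgeR adjusted p = 0.73). Beside these, 0 of 8 fibroblast markers were positive over all 18 libraries, with a median of -0.57 and 5 at an unadjusted p under 0.05, and all 8 mast cell markers were, with a median of 1.55. Their part in the member values was not tested. Without WT-Guanabenz 3, the 2 remaining WT-Guanabenz libraries had the lowest Il1b levels of all 18 libraries, at 8.05 and 7.56 CPM. KO-Clonidine 2 at 8.07 CPM and WT-Clonidine 1 at 8.43 CPM lay close above them.

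Clonidine in wild-type hosts went with lower values of several members, none of which passed the test. The comparison uses the same 3 WT-Control libraries as that of guanabenz. The count in WT-Clonidine against WT-Control was 0 of 10 at an edgeR adjusted p of 0.05, and 0% of all genes passed. DESeq2 called 0 members as well. At an unadjusted p under 0.05 there was 1 member, Acod1, against 12.9% of all genes. Acod1 had 9.41, 8.70 and 11.6 CPM in WT-Clonidine, against 12.2, 13.3 and 33.2 CPM in WT-Control, and averaged 9.90 ± 1.51 CPM in WT-Clonidine and 19.5 ± 11.8 CPM in WT-Control (SD, n = 3 each). The groups did not overlap for Acod1, nor for Nos2, where WT-Clonidine was lower, and 9.81% of all genes had that order. The log2 fold change of Acod1 was -0.99 (SE 0.36, 95% interval -1.76 to -0.22, edgeR adjusted p = 0.265), and it was -0.37 without WT-Control 3. Nos2 had 2.21, 2.65 and 3.85 CPM in WT-Clonidine, against 3.96, 5.56 and 7.06 CPM in WT-Control, with a log2 fold change of -0.94 (SE 0.61, adjusted p = 0.543 in edgeR).

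Lif was the member with the largest difference between WT-Clonidine and WT-Control. It had 2.48, 2.68 and 5.07 CPM in WT-Clonidine, against 4.00, 8.65 and 7.63 CPM in WT-Control, so that the highest treated library overlapped the lowest control. Its log2 fold change was -1.002 (SE 0.48, 95% interval -2.02 to 0.02, edgeR adjusted p = 0.396). WT-Guanabenz 3, in neither group, enters this interval through the shared spread. Without that library Lif stood at -1.002 (SE 0.38, 95% interval -1.82 to -0.19, edgeR adjusted p = 0.257). The log2 fold changes of the other members were -0.60 for Il1a, -0.57 for Il1b, -0.31 for Ptgs2, -0.15 for Osm, 0.05 for Tnf, 0.22 for Il6 and 0.34 for Nfkbiz. The median over the 10 genes was -0.44, against 0.00 over all genes, with 7 negative. Beside these, all 9 T cell markers were higher in WT-Clonidine, with a median log2 fold change of 0.84, and all 8 mast cell markers, with a median of 1.499. Their summed levels were 40.2 to 53.6 CPM in WT-Clonidine against 23.5 to 31.8 CPM in WT-Control for T cells, and 20.3 to 33.3 CPM against 10.3 to 15.5 CPM for mast cells. The part of these cells in the member values was not tested.

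In KO hosts 0 members passed in KO-Clonidine against KO-Control in edgeR, where 0.0186% of all genes did, and 0 in DESeq2. No member had an unadjusted p under 0.05, against 5.52% of all genes, and 0 members separated the groups, against 4.4% of all genes higher and 4.43% lower. The median of the 10 log2 fold changes was -0.04. Acod1 had 13.4, 9.27 and 7.88 CPM in KO-Clonidine, against 9.87, 19.6 and 12.8 CPM in KO-Control, a log2 fold change of -0.48 (SE 0.37) that was -0.16 without KO-Control 2. Il1b had 19.99, 8.07 and 25.9 CPM in KO-Clonidine, against 13.8, 14.6 and 12.2 CPM in KO-Control, and its log2 fold change was 0.41 (SE 0.54). The KO-Clonidine libraries lay on both sides of the narrow control group. With a Y-linked term the Il1b value was -0.19, and no KO-Clonidine library has Y-linked transcripts. Beside it, 7 of 8 fibroblast markers were positive with a median of 0.30, 3 of them at an unadjusted p under 0.05, and they summed to 15375.6 to 25485.2 CPM in KO-Clonidine against 13379.2 to 18934.7 CPM in KO-Control. Their part in the member values was not tested. Nos2 had 1.52, 3.29 and 12.0 CPM in KO-Clonidine, against 3.33, 12.4 and 3.37 CPM in KO-Control, so that a single high library in each group carried the mean and the log2 fold change was -0.16 (SE 0.60). That value was -1.38 without KO-Clonidine 3 and 0.76 without KO-Control 2.

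Between genotypes, the clonidine effect differed past the threshold for 0 members in edgeR, in a comparison where 0% of all genes passed, and for 0 in DESeq2. At an unadjusted p under 0.05 were 0 members, against 8.94% of all genes. The difference between the log2 fold change in WT and that in KO hosts was -1.18 for Lif (SE 0.68, 95% interval -2.62 to 0.26, edgeR adjusted p = 0.639), -0.98 for Il1b (SE 0.76) and -0.52 for Acod1 (SE 0.51). For Acod1 it was 0.11 without WT-Control 3. Over all 18 libraries these intervals are wide enough to hold both no difference and a difference of more than 2 times. WT-Guanabenz 3 enters them through the shared spread alone. Without it Lif stood at -1.18 (SE 0.54, 95% interval -2.33 to -0.03, edgeR adjusted p = 0.494). Il1b then stood at -0.98 (SE 0.43, 95% interval -1.89 to -0.07, edgeR adjusted p = 0.478) and Acod1 at -0.52 (SE 0.49). As said above, these are not ordinary 95% intervals.

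The genotypes themselves were compared under PBS and over all treatments. In KO-Control against WT-Control 0 members passed in edgeR, where 0.0062% of all genes did, 0 in DESeq2, and 0 had an unadjusted p under 0.05, against 3.68% of all genes. The groups overlapped for all 10 members, where 4.56% of all genes were higher and 3.77% lower without overlap. Il6 had the largest difference, with 0.289, 1.86 and 0.788 CPM in KO-Control against 0.649, 0.493 and 0.433 CPM in WT-Control. The lowest and the highest of these 6 values were both in KO-Control, and the log2 fold change of 0.92 (SE 0.91) was 0.09 without KO-Control 2. Acod1 stood at -0.48 (SE 0.36), and at 0.15 without WT-Control 3. Averaged over the 3 treatments, 0.416% of all genes passed in KO against WT hosts in edgeR and 0 members did, nor did any in DESeq2. At an unadjusted p under 0.05 were 0 members, against 17.4% of all genes. This average includes the libraries titled KO-Guanabenz. Il1a was at -0.47 (SE 0.44), Il6 at -0.41 (SE 0.52), Ptgs2 at 0.32 (SE 0.25), Tnf at -0.28 (SE 0.20) and Il1b at 0.15 (SE 0.31), and 4 of 10 members were positive with a median of -0.08. Without WT-Guanabenz 3, 8 of 10 were positive with a median of 0.30, with Il1a at 0.37, Il6 at 0.51, Tnf at 0.02 and Il1b at 0.64 (SE 0.19, 95% interval 0.24 to 1.03, edgeR adjusted p = 0.106). Beside these, 0 of 8 mast cell markers and 0 of 8 epidermal markers were positive over all 18 libraries, with medians of -0.32 and -0.28, and their part in the member values was not tested.

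Clonidine and guanabenz were also set side by side in wild-type hosts, with the reservation that the labels give no dose for either. No member passed in WT-Clonidine against WT-Guanabenz in edgeR, nor did any gene (0%), and DESeq2 called 0 members. The groups overlapped for all 10 members, where 5.33% of all genes were higher and 3.74% lower without overlap. At an unadjusted p under 0.05 were 4 members, where 5.05% of all genes lay: Il6 at a log2 fold change of -3.12 (SE 0.93), Il1a at -2.46 (SE 0.79), Lif at -1.46 (SE 0.49) and Osm at -0.94 (SE 0.33), each with an edgeR adjusted p of 0.957. Without WT-Guanabenz 3 these were -0.36 for Il6, 0.06 for Il1a, -0.60 for Lif and -0.16 for Osm. In the same comparison all 7 endothelial markers were positive (6 at an unadjusted p under 0.05), all 9 T cell markers (4 at that p) and 7 of 8 mast cell markers, while 7 of 8 neutrophil markers were negative (4 at that p). Their part in the member values was not tested. Lif, for one, had 2.48, 2.68 and 5.07 CPM in WT-Clonidine against 5.50, 4.73 and 17.5 CPM in WT-Guanabenz.

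The wider pathway was read from 8 lists of receptors, subunits, targets and inhibitors, and no gene of any list passed in any of the 9 comparisons in edgeR. Among 13 cytokine receptors and decoys, Lifr, the LIF receptor subunit, had the smallest p in WT-Guanabenz against WT-Control, with 50.04, 34.4 and 24.3 CPM in WT-Guanabenz against 22.0, 25.9 and 22.2 CPM in WT-Control. Its log2 fold change was 0.63 (SE 0.18, adjusted p = 0.228 in edgeR), and without WT-Guanabenz 3, here the lowest library of its group, it was 0.85 (SE 0.14, edgeR adjusted p = 0.056). Of the 11 chemokines and growth factors, 9 were positive in the same comparison with a median of 1.19, led by Cxcl3 at 3.15 (SE 1.08) and Cxcl2 at 3.10 (SE 1.17). Without WT-Guanabenz 3, 5 of 11 were positive with a median of -0.04, Cxcl3 was at 1.28 and Cxcl2 at 0.16. Of 16 NF-kB subunits and feedback inhibitors, 8 were positive and 8 negative, with a median of 0.00, and without WT-Guanabenz 3, 3 were positive and 13 negative, with a median of -0.13.

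In WT-Clonidine against WT-Control these lists had medians between -0.17 and 0.11. Of 14 prostaglandin genes, 9 were positive with a median of 0.07, and the smallest p belonged to Ptger4, the prostaglandin E2 receptor EP4, with 25.2, 20.7 and 21.5 CPM in WT-Clonidine against 16.6, 19.0 and 18.0 CPM in WT-Control. Its log2 fold change was 0.33 (SE 0.09, edgeR adjusted p = 0.163). The groups did not overlap, an order that 11.1% of all genes had. Il10, the gene of the anti-inflammatory cytokine IL-10, in the list of 11 mRNA decay and signal brakes, stood at 1.09 (SE 0.37, adjusted p = 0.232 in edgeR), with 1.44, 1.06 and 0.628 CPM in WT-Clonidine against 0.426, 0.689 and 0.385 CPM in WT-Control. Of 11 STAT3 targets and acute phase genes, 8 were negative with a median of -0.17, with Junb, an AP-1 subunit, at -0.48 (SE 0.18). Of 10 arginine and nitric oxide genes, 7 were negative with a median of -0.16, with Asl, which regenerates arginine, at -0.31 (SE 0.09). Of 9 inflammasome genes 6 were positive, with a median of 0.04.

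How the members went together across libraries was described by Pearson's r of log2 CPM, over libraries that share 6 groups and differ in depth. Over the 18 libraries the median r of the 45 pairs was 0.57, with 13 pairs above 0.7, among them Il1a and Osm at 0.90 and Il6 and Osm at 0.86. Over the 17 libraries without WT-Guanabenz 3 the median was 0.34, with 5 pairs above 0.7. Il1a and Osm then had 0.67 and Il6 and Osm 0.54, and Tnf had no value above 0.48 with any other member. The pair of Ptgs2 and Lif changed little, at 0.83 over 18 and 0.84 over 17 libraries.

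**Figure D5:**
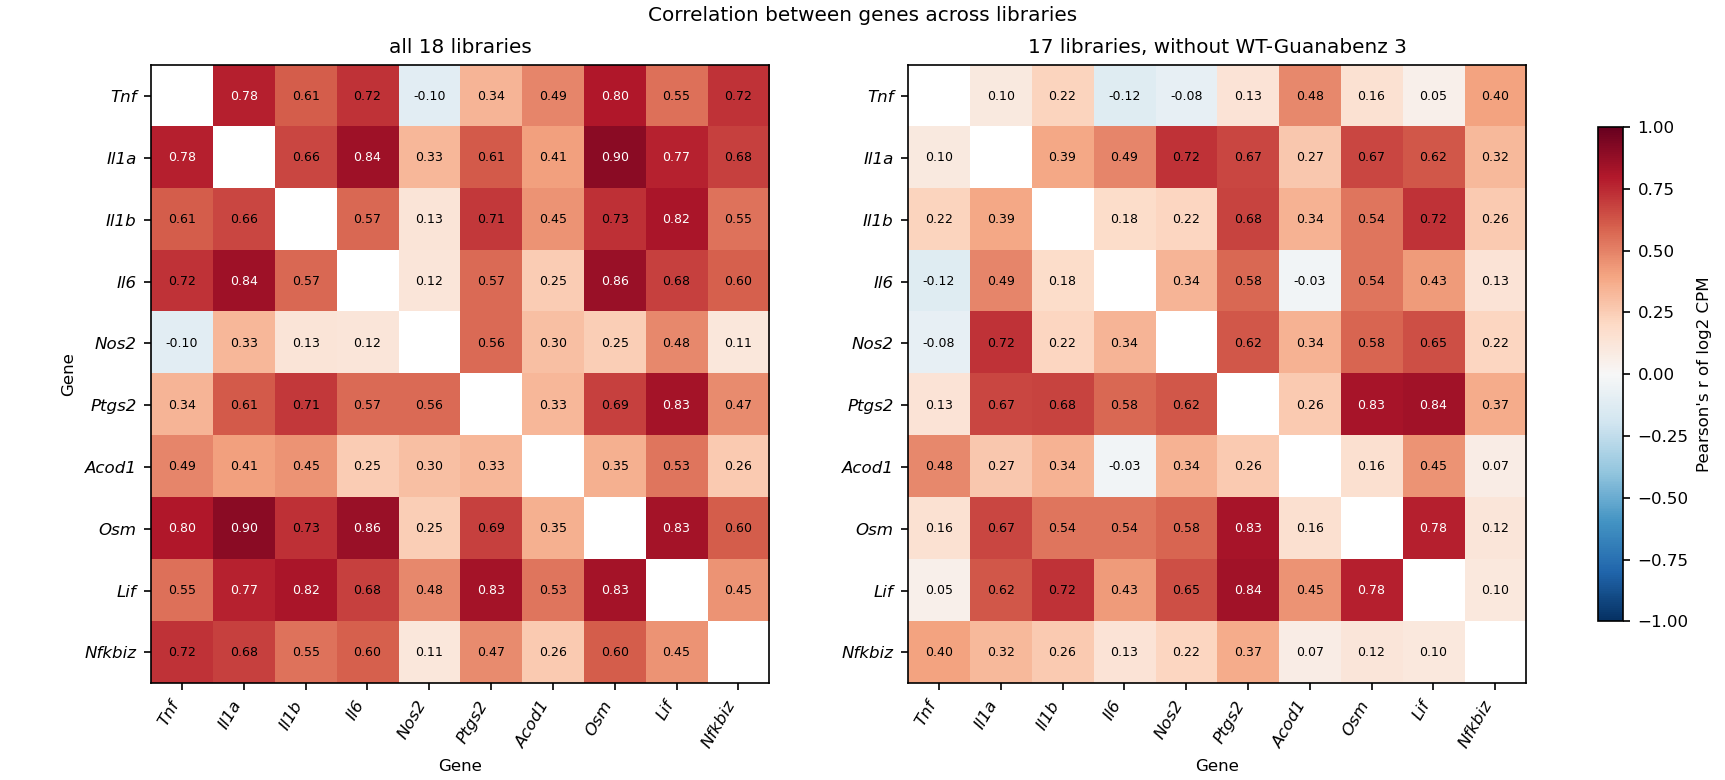
Pearson's r of log2 CPM for each pair of the 10 genes, over all 18 libraries (left) and over 17 without WT-Guanabenz 3 (right). Most cells pale from left to right, and the cells joining Ptgs2, Osm and Lif are above 0.7 on the right, with Ptgs2 and Osm at 0.83 there and 0.69 on the left.

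The genes most like each member, among those with a mean of at least 1 CPM, were taken by the highest r over the 18 libraries. For Ptgs2 they were Rgs1 at 0.94, Pvr at 0.94 and Snapc1 at 0.93, each at 0.93 over 17 libraries. Nos2 went with Mmp12, the macrophage elastase, at 0.87, Hmox1, haem oxygenase 1, at 0.87 and Pgf, placental growth factor, at 0.85, and these were highest in KO-Clonidine 3 or KO-Control 2. Il1b went with Zfp36 at 0.89, Socs3 at 0.86 and Pde4b at 0.86, Lif with Socs3 at 0.88, Errfi1 at 0.87 and Cxcl1 at 0.85, and Nfkbiz with Bcl2a1d at 0.90, Prl2c2 at 0.88 and Pmaip1 at 0.87. Zfp36 encodes tristetraprolin, which promotes decay of Tnf messages among others. Acod1 had the weakest partners, Pcgf6 at 0.74, Lmo4 at 0.72 and Gpr84 at 0.70.

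The partners of the remaining members were mostly members or chemokines with a maximum in WT-Guanabenz 3. Tnf had Ccl3, Osm and Il1a, at 0.80, 0.80 and 0.78, and over 17 libraries at 0.26, 0.16 and 0.10. Il6 had Osm, Il1a and Cxcl1, Osm had Il1a, Cxcl2 and Il6, and Il1a had Osm, Il1rn and Cxcl2. Il1a kept 0.78 with Il1rn and 0.78 with Cxcl2 over 17 libraries. Set against summed neutrophil markers, Il1a had r of 0.88 over 18 libraries and 0.85 over 17, the highest of the members over both, and Nfkbiz 0.79 and 0.66. Csf3r was the largest part of that sum in every library, at 16.8 to 32.5 CPM, and no other marker in it exceeded 7.25 CPM. Against summed macrophage and monocyte markers the values over 17 libraries ran from -0.65 for Il6 to 0.35 for Tnf. Over the same 17 libraries Il1b had 0.70 with summed fibroblast markers, Lif -0.73 with mast cell markers and Nfkbiz 0.60 with T cell markers. These values describe libraries of bulk tissue and were not tested.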

How the data were processed

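RNA-seq of 18 libraries from tumours was analysed from a deposited gene table of estimated counts that the authors produced with Trim Galore 0.6.5 and kallisto 0.46.0 on GRCm38, per the submitters' processing notes. Values are whole numbers as deposited. How transcripts were summed to genes and strandedness are not given in the sources used here. Of 21015 identifiers 20994 matched a symbol, and 1829 had no counts. filterByExpr left 16125 genes. Libraries were scaled by TMM and modelled in edgeR 4.0.16 under R 4.3.3, with a mean for each of the 6 groups and 12 residual degrees of freedom, with two-sided quasi-likelihood tests, Benjamini-Hochberg adjustment over all tested genes within each of 9 comparisons, and 0.05 as the threshold. The labels do not tie libraries to animals, so the p-values reflect only how much these libraries vary, and that variation may be technical. The script was tested on simulated data. Correlations use log2 CPM with a prior count of 2, and CPM per kilobase the longest protein-coding transcript of GENCODE M21. Promoters come from RefSeq.

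The members and lists were chosen with earlier results of these data known. Named genes are the 10 members, per list and comparison up to 2 genes with the smallest p where none passed, of which a selection is printed, and for each member its 3 most correlated genes. Genes named from WT-Guanabenz 3 were chosen after their values were seen. Of 169 list genes, 3 (Casp1, Il36g and Trac) had no row in the table. Same-numbered libraries did not deviate together (r between -0.331 and 0.253, median 0.0104), so numbers were not taken to pair them. No 2 replicates agreed within sampling noise. Alternatives were DESeq2 1.42.0, RLE scaling, other filters, the replicate block, the compared groups alone, both readings of the KO-Guanabenz titles, a Y-linked term and omission of each library.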

Additional observations from a re-analysis of the deposited data

How the results depend on the processing

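The spread between 3 libraries a group, and not depth, set the precision. That spread is estimated for each gene from all 18 libraries, so WT-Guanabenz 3 also enters the intervals of comparisons that do not contain it. No member passed in any of the 9 comparisons under any of the 9 other settings, where they applied, or on leaving out any of the 18 libraries. In every comparison a member without an adjusted p counted as not passing. DESeq2 is thus no check where it gave none, as for Il1a and Il6 in WT-Guanabenz against WT-Control. Over all members and comparisons, fold changes kept their direction in 733 cases and turned in 27 under other settings, and kept it in 1521 and turned in 99 when a library was left out. The cause of each change below was not tested.

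With DESeq2 the numbers of genes called were 353 in WT-Clonidine against WT-Control (0 in edgeR), 29 in KO-Clonidine against KO-Control (3), 33 for the clonidine effect in WT minus KO (0), 173 in WT-Guanabenz against WT-Control (0), 443 in KO-Guanabenz against KO-Control (2), 13 for the guanabenz effect in WT minus KO (1), 17 in KO-Control against WT-Control (1), 601 in KO against WT over treatments (67) and 4 in WT-Clonidine against WT-Guanabenz (0). With the replicate block, and likewise with the compared groups alone, 0 genes were called in KO-Clonidine against KO-Control, 0 in KO-Guanabenz against KO-Control and 0 in KO-Control against WT-Control. The block left 60 genes in KO against WT over treatments, and 5 of 18 libraries correlated best with their own number. Read as KO-Control, the libraries titled KO-Guanabenz gave 0 genes in KO-Clonidine against KO-Control, 2 in KO-Control against WT-Control and 3 in KO against WT, and their omission gave 2 in the last. A Y-linked term gave 1, 2, 11 and 0 genes in KO-Clonidine against KO-Control, the clonidine effect in WT minus KO, KO-Guanabenz against KO-Control and KO-Control against WT-Control. No filter gave 3 genes for the clonidine effect in WT minus KO and 1 in WT-Guanabenz against WT-Control, where RLE scaling also gave 1. A mean of at least 1 CPM gave 3 for the clonidine effect in WT minus KO, 22 in KO-Guanabenz against KO-Control, 2 for the guanabenz effect in WT minus KO and 0 in KO-Control against WT-Control.

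Leaving out each library gave 0 to 55 genes in WT-Clonidine against WT-Control (55 without WT-Control 2), 0 to 4 in KO-Clonidine against KO-Control, 0 to 2 for the clonidine effect in WT minus KO, 0 to 1 in WT-Guanabenz against WT-Control, 0 to 85 in KO-Guanabenz against KO-Control (85 without KO-Guanabenz 3), 1 to 4 for the guanabenz effect in WT minus KO, 0 to 2 in KO-Control against WT-Control, 7 to 111 in KO against WT (7 without KO-Guanabenz 1, 111 without WT-Guanabenz 3) and 0 to 1 in WT-Clonidine against WT-Guanabenz.

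The turned log2 fold changes given here are a selection of those counted above. With a Y-linked term they were Tnf at -0.11 and Il6 at -0.35 in WT-Clonidine against WT-Control. They were also Il1b at -0.19 and Nos2 at 0.0758 in KO-Clonidine against KO-Control, and Il1b at -0.17 in WT-Guanabenz against WT-Control. In KO against WT, Il1a stood at 0.31 and Il6 at 0.68 on omission of KO-Guanabenz, which leaves the average over clonidine and PBS, and Il1a at 0.26 and Il6 at 0.64 with KO-Guanabenz read as KO-Control. Nos2 stood at 0.20 in KO-Clonidine against KO-Control with KO-Guanabenz read as KO-Control. With libraries left out, Tnf ran from -0.0314 to 0.17 and Il6 from -0.0792 to 0.44 in WT-Clonidine against WT-Control, Nos2 from -1.38 to 0.76 in KO-Clonidine against KO-Control and from -1.16 to 0.0696 in KO-Guanabenz against KO-Control. In WT-Guanabenz against WT-Control the ranges were -0.26 to 0.97 for Tnf, -0.65 to 2.37 for Il1a, -1.08 to 0.79 for Il1b, -0.24 to 0.43 for Ptgs2, -0.75 to 0.20 for Acod1, -0.41 to 0.78 for Lif and -0.18 to 0.54 for Nfkbiz. Acod1 ran from -0.83 to 0.11 for the clonidine effect in WT minus KO and from -0.79 to 0.15 in KO-Control against WT-Control. For the guanabenz effect in WT minus KO, Il1a ran from -0.44 to 2.58 and Il1b from -1.77 to 0.0930. Tnf ran from -0.39 to 0.0213, Il1a from -0.64 to 0.37 and Il6 from -0.68 to 0.51 in KO against WT, and Il1a from -2.97 to 0.0573 in WT-Clonidine against WT-Guanabenz.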
